A study of Homo sapiens with 32 samples.

Results

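In 38 of the 1-Mb windows that tile chromosomes 1 to 22, m6A peaks were listed at a much higher density in both knockouts of PANC-1 cells than in control cells. N6-methyladenosine (m6A) is a methyl mark on adenosines of RNA, and PANC-1 is an established line of human pancreatic ductal adenocarcinoma. The mark was mapped by pulling down RNA fragments with an antibody to m6A and sequencing them, beside unselected input fragments. The groups were control, KO CFL1 and KO METTL3 cells, each grown without further treatment named in the labels, and each stood behind 1 list that joined the peaks of 2 libraries. Total RNA was the material for all 3 lists. The labels do not say whether a knockout line was 1 clone. The peak names of the knockout libraries carry the letters si, which the labels do not explain, and the labels' word knockout was followed. Each library is named here by its number in the peak names, 1 and 2 for control, and 3 and 5 for each of the knockouts.

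A window entered if its lines, scaled to 100000 lines of each library, had a mean of 20 or more over the 4 knockout libraries and at least 2.5 times the control mean. A line is 1 listed peak of 1 library. Of 2706 windows with any line, 1482 had a knockout mean of 20 or more, and 38 of those, 2.56%, met the ratio as well. These 38 windows held 5613 of the 424904 lines in the 3 lists. The members were thus chosen by the knockout-to-control difference in these same libraries, so that difference is given below as a description, with no test. Genes and sequence of the build of the lists, hg19, were not used here, so no line is assigned to a gene, and no defining marker gene of PANC-1 could be looked up.

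As background, METTL3 is the catalytic subunit of the nuclear complex that writes m6A on nascent transcripts, and CFL1 is cofilin 1, which severs actin filaments and also carries actin into the nucleus. The mark is read by proteins of the YTH family and bears on splicing, export and decay of RNA. In messenger RNA it is best known near stop codons and in long internal exons, but nascent and noncoding RNA carries it too. A peak needs transcribed RNA as well as the mark, and the level of RNA was not analysed here.

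Summed over the 38 windows, control 1 held 523 lines per 100000 and control 2 held 594. CFL1 knockout 3 and 5 held 1690 and 1724, and METTL3 knockout 3 and 5 held 1809 and 1860. Both libraries of each knockout lay far above both controls, as the rule required of their mean. By group this came to 559 ± 50.1 in control, 1707 ± 24.2 after loss of CFL1 and 1834 ± 36.2 after loss of METTL3 (SD, n = 2), or 3.06 and 3.28 times control. In single windows the knockout mean was 2.51 to 5.23 times the control mean, with a median of 3.08, against a median of 1.04 over the 1482 windows. All 4 knockout libraries lay above both control libraries in all 38 windows, as they did in 32.5% of the 1482. The plot of lines in the 38 windows shows no crossing of control and knockout points within a window.

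**Figure D1:**
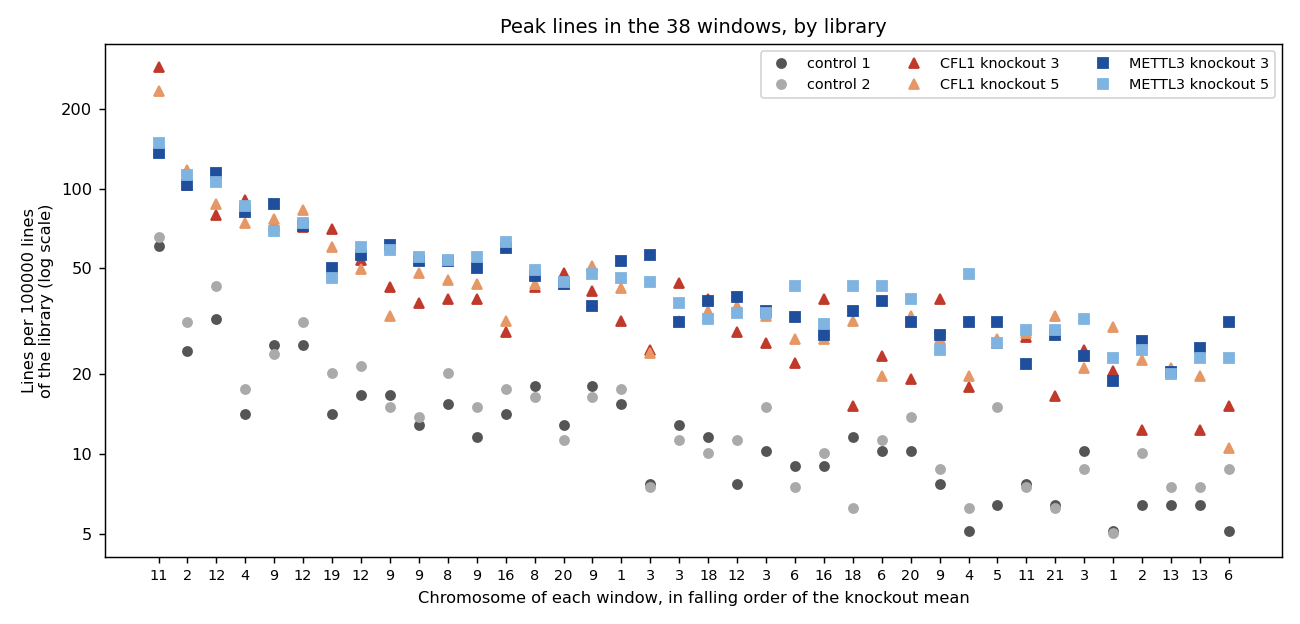
Lines per 100000 lines of the library (log scale) in each of the 38 windows, ordered by knockout mean and labelled by chromosome, with 1 point for each of the 6 libraries. The highest control point of a window lies below its lowest knockout point throughout, and the window on chromosome 11 reaches 286 in CFL1 knockout 3.

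The windows were sparse in control. Their control mean had a median of 12.1 lines per 100000, against 47.1 over the 1482 windows, whereas their knockout mean had a median of 35.9, against 45.9. In raw lines, a control library held between 4 and 52 lines in a window and a knockout library between 7 and 208. Counts this small limit the precision of a single window's ratio. The plot of control against knockout means shows the 38 windows along the upper left edge of a continuous cloud.

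**Figure D2:**
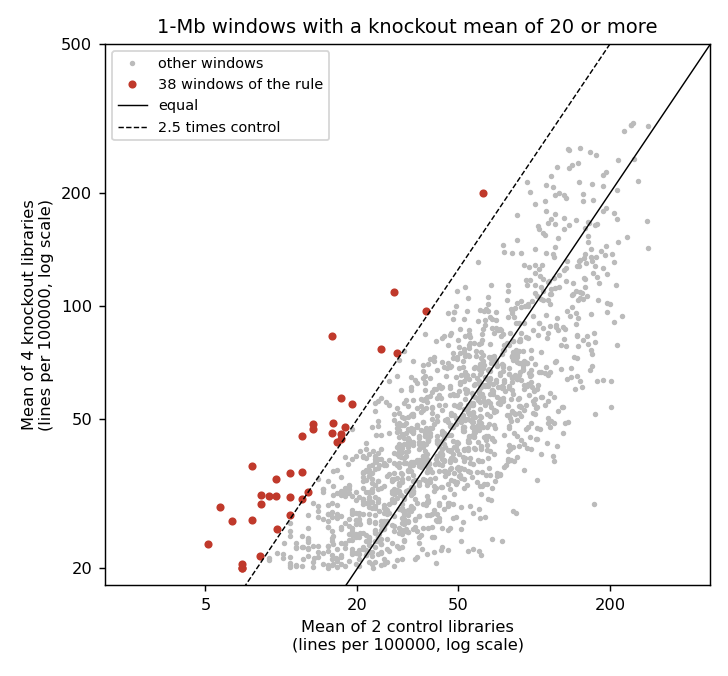
Mean lines per 100000 in the 4 knockout libraries against the mean in the 2 control libraries, both on log scales, for the 1482 windows with a knockout mean of 20 or more. The 38 windows above the dashed line, at 2.5 times control, join the remaining windows without a gap.

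At the ratio threshold, the members nearest to it were chromosome 3, 16000001 to 17000000 (2.51), chromosome 20, 23000001 to 24000000 (2.53) and chromosome 9, 67000001 to 68000000 (2.56). Just outside lay chromosome 9, 137000001 to 138000000 (2.48), and 2 windows at 2.47, chromosome 15, 84000001 to 85000000, and chromosome 1, 7000001 to 8000000. At the floor, the lowest members had knockout means of 20.02 (chromosome 6, 124000001 to 125000000), 20.03 (chromosome 13, 36000001 to 37000000) and 20.5 (chromosome 13, 108000001 to 109000000). The windows just below it were chromosome 4, 9000001 to 10000000 (19.9, ratio 2.84), chromosome 2, 186000001 to 187000000 (19.9, ratio 15.6) and chromosome 4, 82000001 to 83000000 (19.7, ratio 6.22).

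The densest window lay at the short-arm end of chromosome 11, 1000001 to 2000000. It held 60.6 and 65.4 lines per 100000 in control 1 and 2, 286 and 232 in libraries 3 and 5 of the CFL1 knockout, and 136 and 148 in those of the METTL3 knockout. Both CFL1 knockout libraries thus stood above both METTL3 knockout libraries here, at 4.11 times control against 2.25. From general knowledge of hg19, this stretch holds the secreted mucins MUC6, MUC2, MUC5AC and MUC5B, gel-forming proteins of mucus, and next to them TOLLIP, an adaptor of Toll-like receptor signalling, and BRSK2, a kinase of neurons and islets. MUC2, MUC5AC, MUC5B, TOLLIP and BRSK2 are consecutive protein-coding genes in RefSeq's GRCh38.p14 table. These and the other gene names below are background, chosen after the values were seen. Lines of a window need not lie at the genes named for it.

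The lines of that window were spread over all 10 of its 100-kb bins, and its densest bin held 18.2% of its knockout lines. Between 1200001 and 1300000 the group means were 11.5 lines per 100000 in control, 42.9 after loss of CFL1 and 30.3 after loss of METTL3. At 1400001 to 1500000 they were 5.09, 49.8 and 20.2, in the same order. The excess of the CFL1 knockout over the METTL3 knockout was not shared by every bin, since at 1300001 to 1400000 the METTL3 knockout had 35.7 and the CFL1 knockout 28.8.

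The window on chromosome 2, 1000001 to 2000000, held 24.5 and 31.5 lines per 100000 in control, 103 and 118 in the CFL1 knockout and 103 and 112 in the METTL3 knockout. Here the 2 knockouts overlapped, at 3.95 and 3.86 times control. Most of its 292 knockout lines lay in the 4 bins from 1400001 to 1800000, and 10 lay apart at 1200001 to 1300000. At 1400001 to 1500000 the knockout libraries had 14, 16, 19 and 21 lines and both controls 0.

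On chromosome 12, 11000001 to 12000000, control held 32.2 and 42.8 lines per 100000, the CFL1 knockout 79.7 and 87.5, and the METTL3 knockout 114 and 106. Salivary proline-rich protein genes such as PRB3 and PRB4 and the transcription factor gene ETV6 lie in this window of hg19. The bin at 11400001 to 11500000 held 86 of its 258 knockout lines and 2 of its 59 control lines. In contrast, the control mean exceeded both knockout means in the bins that start at 11100001, 11200001 and 11800001, with 18, 8 and 7 lines from the 2 control libraries against 19, 5 and 6 from the 4 knockout libraries. The excess was thus local within this window.

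Chromosome 4, 49000001 to 50000000, had the highest ratio of all 38 windows, 5.23. It held 14.2 and 17.6 lines per 100000 in control, 90.7 and 73.9 in the CFL1 knockout and 81.4 and 86.2 in the METTL3 knockout, which again overlapped. It borders the stretch without lines around the centromere of chromosome 4. That stretch starts at 49649832, inside the window, and the 3 fullest bins were those from 49100001 to 49400000.

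The bars along the 8 densest windows show these blocks beside each other.

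**Figure D3:**
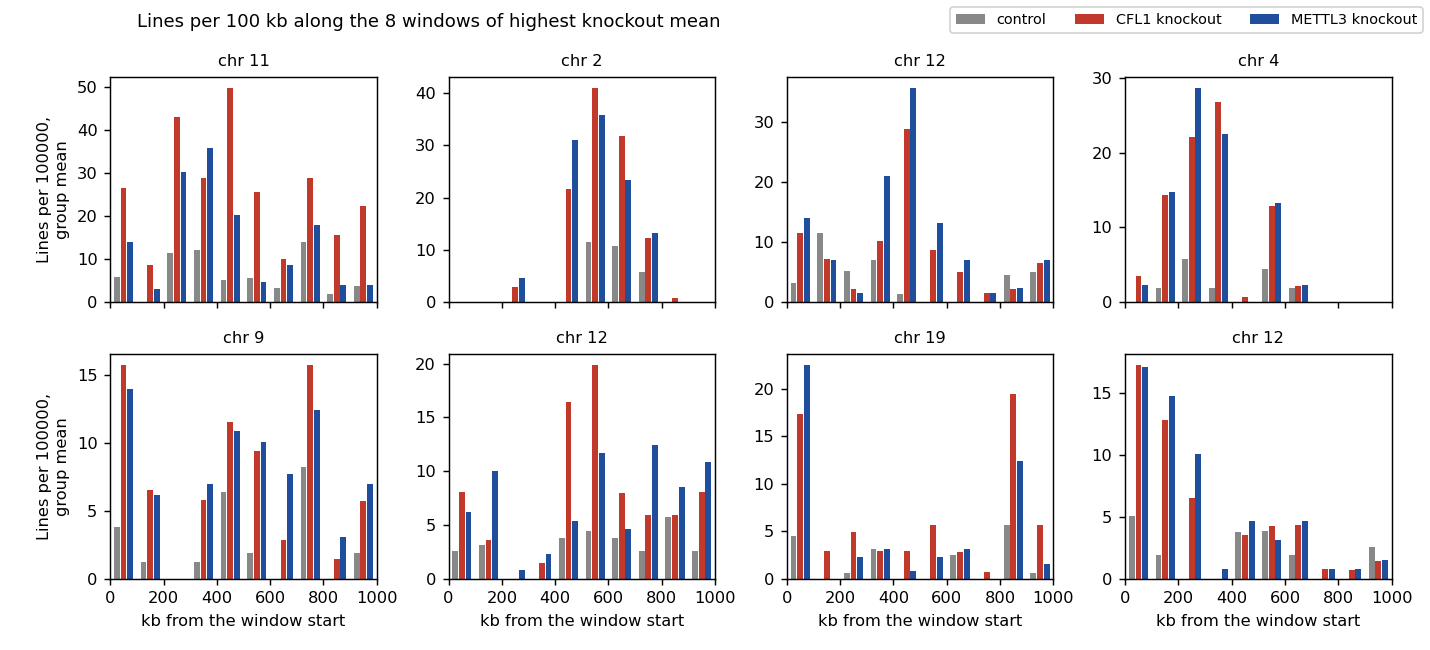
Group means of lines per 100000 in 100-kb bins along the 8 windows with the highest knockout mean, by distance from the window start, for control, CFL1 knockout and METTL3 knockout (2 libraries each, no error bars). Most lines of the chromosome 2 window sit between 400 and 800 kb from its start, while those of the chromosome 11 window reach across all 10 bins.

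The window on chromosome 9 at 45000001 to 46000000 held 25.8 and 23.9 lines per 100000 in control, 72.9 and 76.9 in the CFL1 knockout and 87.7 and 69.3 in the METTL3 knockout. On chromosome 12, 9000001 to 10000000, the values were 25.8 and 31.5, 71.5 and 83.0, and 72.0 and 73.9, in the same order. In both, the 2 knockouts overlapped. The latter window holds A2M and the adjacent PZP in hg19, which encode broad protease inhibitors of plasma. Its 201 knockout lines were uneven, with 1 and 5 in the bins that start at 9200001 and 9300001 and 43 in that at 9500001.

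On chromosome 19, 51000001 to 52000000, control held 14.2 and 20.1 lines per 100000, the CFL1 knockout 70.1 and 60.3, and the METTL3 knockout 50.1 and 46.2. As on chromosome 11, both CFL1 knockout libraries stood above both METTL3 knockout libraries. The window holds most of the kallikrein genes in hg19, a cluster of secreted serine proteases to which KLK1, KLK3 and KLK14 belong. Of its 153 knockout lines, 53 lay at 51000001 to 51100000 and 43 at 51800001 to 51900000, while no bin between them held more than 11. The first of these bins had more lines per 100000 after loss of METTL3 (22.5) than of CFL1 (17.4), and the second fewer (12.4 and 19.4).

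For chromosome 12, 47000001 to 48000000, the values were 16.8 and 21.4 lines per 100000 in control, 53.6 and 49.8 in the CFL1 knockout and 56.4 and 60.04 in the METTL3 knockout. On chromosome 9, 68000001 to 69000000, they were 16.8 and 15.1, 42.6 and 33.2, and 61.1 and 58.5. At 15000001 to 16000000 of chromosome 9 they were 12.9 and 13.8, 37.1 and 48.3, and 53.2 and 55.4. In these 3 windows both METTL3 knockout libraries lay above both CFL1 knockout libraries.

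The same order held in the next 4 windows. On chromosome 8, 104000001 to 105000000, control held 15.5 and 20.1 lines per 100000, the CFL1 knockout 38.5 and 45.3, and the METTL3 knockout 53.2 and 53.9. Chromosome 9, 46000001 to 47000000, held 11.6 and 15.1 in control, 38.5 and 43.7 in the CFL1 knockout and 50.1 and 55.4 in the METTL3 knockout. On chromosome 16, 46000001 to 47000000, the METTL3 knockout stood furthest apart of these 4 windows, with 14.2 and 17.6 in control, 28.9 and 31.7 after loss of CFL1, and 59.5 and 63.1 after loss of METTL3. On that window the CFL1 knockout was only 1.90 times control, below the ratio of the rule, and the METTL3 knockout 3.86 times. Chromosome 8, 71000001 to 72000000, held 18.04 and 16.4, 42.6 and 43.7, and 47.0 and 49.3, in the same order of groups.

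On chromosome 20, 29000001 to 30000000, the knockouts coincided, with 12.9 and 11.3 lines per 100000 in control, 48.1 and 43.7 in the CFL1 knockout and 43.8 and 44.6 in the METTL3 knockout. On chromosome 9, 67000001 to 68000000, they overlapped as well, at 18.04 and 16.4, 41.2 and 51.3, and 36.0 and 47.7. Chromosome 1, 121000001 to 122000000, held 15.5 and 17.6 in control, 31.6 and 42.2 in the CFL1 knockout and 53.2 and 46.2 in the METTL3 knockout. Of these 3, the METTL3 knockout libraries both lay above the CFL1 knockout libraries on chromosome 1 alone.

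The window at 174000001 to 175000000 of chromosome 3 was thin in control, at 7.73 and 7.55 lines per 100000, with 24.7 and 24.1 in the CFL1 knockout and 56.4 and 44.6 in the METTL3 knockout. It had 3.20 times control in the CFL1 knockout and 6.61 times in the METTL3 knockout. Chromosome 3, 39000001 to 40000000, held 12.9 and 11.3 in control, 44.0 and 31.7 in the CFL1 knockout and 31.3 and 37.0 in the METTL3 knockout. Chromosome 18, 47000001 to 48000000, where hg19 places MYO5B, a myosin motor of apical vesicle traffic, held 11.6 and 10.1, 38.5 and 34.7, and 37.6 and 32.3. In the last 2 windows the knockouts overlapped.

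The remaining 18 windows had knockout means of 20.02 to 34.5 and ratios of 2.51 to 5.09. A control library held 5.03 to 15.1 lines per 100000 in them, and a knockout library 10.6 to 47.7. They start at 99000001 on chromosome 12, at 16000001 and 97000001 on chromosome 3, at 124000001, 141000001 and 146000001 on chromosome 6, and at 32000001 on chromosome 16. Further ones start at 68000001 on chromosome 18, 23000001 on chromosome 20, 119000001 on chromosome 9, 142000001 on chromosome 4, 151000001 on chromosome 5 and 60000001 on chromosome 11. The last 5 start at 16000001 on chromosome 21, 103000001 on chromosome 1, 157000001 on chromosome 2, and 36000001 and 108000001 on chromosome 13. Among them, hg19 places NRIP1, a nuclear receptor corepressor, in the window on chromosome 21, COL11A1, a fibrillar collagen, in that on chromosome 1, and NR4A2, an orphan nuclear receptor, in that on chromosome 2.

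The window with NRIP1 held 6.44 and 6.29 lines per 100000 in control, 16.5 and 33.2 in the CFL1 knockout and 28.2 and 29.3 in the METTL3 knockout. The window with COL11A1 held 5.15 and 5.03, 20.6 and 30.2, and 18.8 and 23.1, and that with NR4A2 6.44 and 10.1, 12.4 and 22.6, and 26.6 and 24.6. On chromosome 4, 142000001 to 143000000, the METTL3 knockout reached its highest multiple of control, 6.91, with 31.3 and 47.7 lines per 100000 against 5.15 and 6.29. These windows rest on few lines: the control libraries held 4 or 5 raw lines each on chromosomes 1 and 4 and 5 each on chromosome 21.

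The rule took the mean of the 4 knockout libraries, so a window could enter through a high value in either knockout. It reached 2.5 times control in the METTL3 knockout but not in the CFL1 knockout in 13 windows, and the reverse in 2. The difference between the 2 knockouts is therefore not independent of the choice, and the counts that follow describe the chosen windows. The METTL3 knockout mean exceeded the CFL1 knockout mean in 25 of the 38 windows. It did so in most of the 1482 windows as well, where the median CFL1-to-METTL3 ratio was 0.954. Their exact count is not given here, so the 25 do not set the 38 windows apart. Both METTL3 knockout libraries lay above both CFL1 knockout libraries in 18 of the 38 windows (47.4%), against 34.8% of the 1482 windows. The reverse order held in 3 (7.89%), against 24.2%. These were the windows at the end of chromosome 11, at 51000001 on chromosome 19, and at 108000001 on chromosome 13. In that last window the 4 values lay between 20.01 and 21.1, from 15 and 14 raw lines against 13 and 13, so the order rests on 1 or 2 lines. The other 17 windows overlapped. The median CFL1-to-METTL3 ratio was 0.878 in the 38 windows and 0.954 in the 1482, and it ran from 0.472 to 1.82.

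Over the summed lines the mean of the CFL1 knockout differed from that of the METTL3 knockout by -127 lines per 100000, a ratio of 0.931. The difference was larger than the SD within each group of 2. An exact permutation of 2 against 2 libraries gave a two-sided p = 0.333, the smallest that its 3 splits allow, so this design cannot pass 5%, and the choice of windows bears on the difference it compares. Whatever the other knockout did, the CFL1 knockout mean reached 2.5 times control in 25 windows and the METTL3 knockout mean in 36. Both reached it in 23. So 15 of the 38 windows met the rule through the mean of both knockouts, with 1 of them under the ratio. The lowest multiples of control were 1.84 for loss of CFL1 and 2.25 for loss of METTL3.

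**Figure D4:**
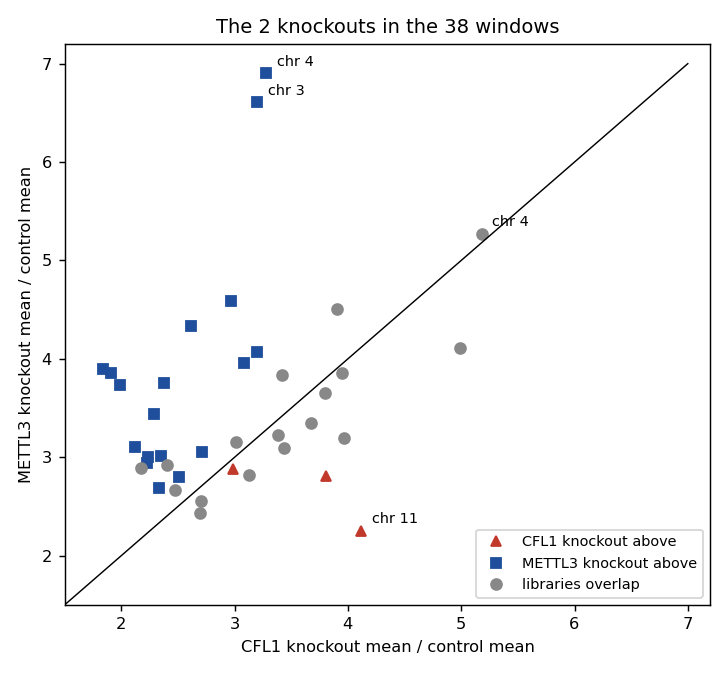
The CFL1 knockout mean over control against the METTL3 knockout mean over control in the 38 windows, with the line of equality. Triangles mark 3 windows where both CFL1 knockout libraries lay above both METTL3 knockout libraries, squares 18 windows with the reverse order, and circles 17 windows that overlapped. The windows of chromosomes 3 and 4 at the top reach 6.61 and 6.91 in the METTL3 knockout.

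In the knockouts, lines of these windows were weaker in −log10 q than the lines of their library in general, and in control nearly as strong. The median −log10 q in control 1 and 2 was 7.56 and 7.41 in the 38 windows, against 7.67 and 7.52 over chromosomes 1 to 22. In CFL1 knockout 3 and 5 it was 6.81 and 6.63 in the windows against 9.50 and 11.05, and in METTL3 knockout 3 and 5 it was 7.96 and 6.68 against 11.3 and 10.3. All 4 knockout libraries showed this lower value, at 0.600 to 0.717 of their own median, whereas both controls were at 0.986. The median fold enrichment was slightly higher in the windows in all 6 libraries, from 1.04 times the library's median in CFL1 knockout 5 to 1.12 times in METTL3 knockout 3. It was 4.54 and 4.24 in control, 5.09 and 4.92 in the CFL1 knockout and 5.22 and 5.07 in the METTL3 knockout. These −log10 q and fold values are the authors' own for each peak, and the read depth behind them is unknown.

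Median line width in the windows was 388 and 368 bp in control, 319 bp in both CFL1 knockout libraries, and 362 and 317 bp in the METTL3 knockout. Over chromosomes 1 to 22 it was 332 and 340, 332 and 340, and 364 and 341 bp, in the same order. Control lines were thus wider here than elsewhere and knockout lines somewhat narrower or alike. Lines of 1000 bp or more made up 10.8% and 8.90% of the control lines in the windows and 7.00% to 9.78% of the knockout lines. Over chromosomes 1 to 22 these shares were 7.86% and 8.50% in control and 8.79% to 11.3% in the knockouts, so all 4 knockout libraries lay above both controls there. In the windows both controls lay above 3 of the knockout libraries, and METTL3 knockout 3 lay between them.

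The excess in the knockouts shrank among the stronger lines. It was 3.17 times control over all lines and 3.21 times at a −log10 q of 5 or more. Counting lines with a −log10 q of at least 10, still per 100000 of all lines, control held 229 and 242 in the windows, the CFL1 knockout 630 and 676, and the METTL3 knockout 772 and 724, a ratio of 2.97. At 20 or more, control held 157 in each library, the CFL1 knockout 335 and 389, and the METTL3 knockout 431 and 388, a ratio of 2.45. At 50 the values were 83.8 and 95.6, 139 and 163, and 193 and 149, a ratio of 1.79. Over all lines of the lists the corresponding ratio went the opposite way, from 1.23 at 10 to 1.33 at both 20 and 50. The controls stayed below all 4 knockout libraries at each of these thresholds, as the plot of lines by strength shows. The windows were chosen by their ratio over all lines of these same libraries. Both this order and the lower ratio among stronger lines may thus follow in part from the choice, which was not tested.

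**Figure D5:**
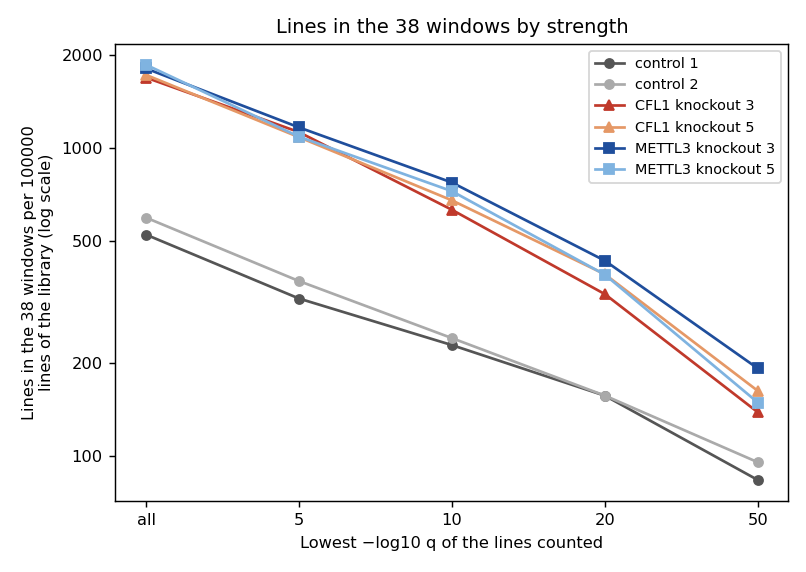
Lines in the 38 windows per 100000 of all lines of the library (log scale) against the lowest −log10 q counted, 1 curve for each library. The knockout curves fall towards the control curves, from 3.17 times control over all lines to 1.79 times at a −log10 q of 50.

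Joined where lines of any library overlapped by at least 1 bp, the windows held 2336 sites. Of these, 228 (9.76%) were shared by the 4 knockout libraries and absent from both controls, against 3.60% of the 149700 sites in the 1482 windows. Only 35 (1.498%) were called in both controls and in no knockout library, against 13.9%. Sites of 1 knockout library alone made up 43.9% of the sites, against 27.3%, and those of 2 or 3 knockout libraries and no control 23.7%, against 12.6%. Sites found in all 6 libraries numbered 159 (6.81%, against 11.3%). Presence in control is part of what the rule used, so these shares describe the windows and support nothing further. Every window held at least 1 site of all 4 knockout libraries and no control, and the most, 20, lay on chromosome 12 at 11000001 to 12000000. The same count over the 1482 windows is not given here, and those windows held 5391 such sites.

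The 159 sites called in all 6 libraries allow fold enrichment to be compared at the same place. Their median fold was 6.002 and 5.80 in control, 8.51 and 8.09 in the CFL1 knockout and 8.61 and 9.38 in the METTL3 knockout. All 4 knockout medians lay above both controls. The knockout-to-control difference of fold had a median of 0.60 on the log2 scale and was positive at 119 sites (74.8%). Over the 16987 such sites of the 1482 windows the median was 0.25, with 63.1% positive. There too the median fold of all 4 knockout libraries lay above both controls, at 6.15 to 7.69 against 6.03 and 6.08. These values were measured in the same libraries as the rule and have no test.

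Seen from the knockouts, 82.7% of the 2183 sites joined from knockout lines in the windows had no control line, against 64.3% in the 1482 windows. By library, the share of lines without a control line was 76.3% and 74.1% in the CFL1 knockout and 72.9% and 73.8% in the METTL3 knockout. Over the 1482 windows the same shares were 54.6% and 48.6%, and 46.4% and 47.4%. Conversely, 20.4% of the lines of control 1 and 26.1% of those of control 2 in the windows had no knockout line, against 53.1% and 51.5% in the 1482. The rule chose windows with few control lines beside many knockout lines, so these shares follow in part from the choice.

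In each of the 12 densest windows, the strongest site called in all 4 knockout libraries and neither control was taken. The strongest of all lay on chromosome 9 at 45579194 to 45579586, with −log10 q of 216 and 393 in the CFL1 knockout and 65.5 and 38.2 in the METTL3 knockout. Its fold was 97.1 in CFL1 knockout 5, and the nearest control line was 24986 bp away. On chromosome 12 at 9901741 to 9902025 the values of −log10 q were 149, 138, 165 and 82.5, with a control line 3420 bp away. On chromosome 9 at 46687477 to 46687893 they were 153, 36.1, 46.7 and 34.6. A call in all 4 knockout libraries was required by the choice of these sites, and their −log10 q differed by library.

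On chromosome 9 at 15474029 to 15474366 the order of the knockouts was the reverse of that at 45579194, with 66.5 and 50.9 in the CFL1 knockout and 124 and 145 in the METTL3 knockout. This site had a low fold, 5.31 in METTL3 knockout 5, and a control line 1141 bp away. In the window of chromosome 2 that starts at 1000001 the strongest site, at 1216748 to 1218920, was a 2173-bp line with a fold of 46.6 in METTL3 knockout 5. Its −log10 q was 117, 61.7, 115 and 140, and no control line lay within 323459 bp. On chromosome 19 at 51004070 to 51004513 the 4 values were 130, 84.4, 42.2 and 42.2, higher in both CFL1 knockout libraries.

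On chromosome 4 at 49317847 to 49318362 the −log10 q was 100 in CFL1 knockout 3 and 25.1, 44.5 and 51.1 in the others. The widest of the 12, at 1705178 to 1708700 of chromosome 11, spanned 3523 bp and had 79.1 and 39.9 in the CFL1 knockout but only 4.95 and 2.89 in the METTL3 knockout. On chromosome 9 at 68302593 to 68302860 the values were 70.6, 53.6, 22.4 and 2.89. Both of these were at the weak end of calling in METTL3 knockout 5. The 3 others, on chromosome 12 at 11653498 to 11654837 and 47142393 to 47142712 and on chromosome 8 at 104258705 to 104259099, had their highest −log10 q at 59.9, 22.9 and 51.3. The nearest control lines to the 12 sites lay between 825 and 323459 bp away.

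The lines of a window were not spread evenly over it. The densest 100-kb bin held a median of 34.6% of a window's knockout lines, against 28.8% over the 1482 windows. Knockout lines reached a median of 8 bins and control lines a median of 4, against 9 and 7. Bins with at least 8 knockout lines and no control line occurred in 25 of the 38 windows (65.8%), against 17.5% of the 1482. There were 37 such bins in the 38 windows, of 291 in the 1482. The rule chose windows with few control lines, so fewer bins with control lines and more without any follow from it.

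The 3 fullest of these bins were on chromosomes 2, 20 and 8. After the bin at 1400001 on chromosome 2 came the one at 29800001 to 29900000 of chromosome 20, with 21 and 17 lines in the CFL1 knockout and 12 in each METTL3 knockout library. At 71700001 to 71800000 of chromosome 8 there were 10 in each CFL1 knockout library and 15 and 14 in the METTL3 knockout. Per 100000 lines the bin on chromosome 20 was denser in both CFL1 knockout libraries (28.9 and 25.6 against 18.8 and 18.5), and that on chromosome 8 in both METTL3 knockout libraries (23.5 and 21.6 against 13.7 and 15.1). Not every such bin held lines from each knockout library. At 46300001 to 46400000 on chromosome 16 the 4 libraries had 0, 3, 8 and 14 lines, and at 16400001 to 16500000 on chromosome 3 they had 4, 7, 0 and 2.

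The windows were spread over 16 chromosomes. Chromosome 9 held 6 of them (15.8%), although it held 5.06% of the 1482 windows, and chromosomes 3 and 12 held 4 each. None lay on chromosomes 7, 10, 14, 15, 17 or 22. In 2 places, both on chromosome 9, members adjoined, at 45000001 to 47000000 and 67000001 to 69000000. Windows beside a member that were not members themselves had a median ratio of 1.30 where their knockout mean was 20 or more (37 windows), against 1.02 for all 1444 windows of the 1482 that were not members.

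These pairs lie on either side of the longest stretch without lines on chromosome 9, from 47306123 to 65576704. In hg19 the centromeres are gaps of unsequenced bases, in which no line can lie. Within 3 Mb of a stretch of at least 2.5 Mb without any line lay 11 of the 38 windows (28.9%), against 84 of the 1482 (5.67%). They were 4 on chromosome 9, 2 on chromosome 16, 2 on chromosome 20, and 1 each on chromosomes 1, 4 and 21. The other 73 of those 84 did not reach the ratio of the rule. The median ratio of the 84 was 1.18, against 1.04 over the 1482.

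The 11 windows and the 27 further away had like ratios. The 11 held 155 and 165 lines per 100000 in control, 469 and 490 in the CFL1 knockout and 561 and 570 in the METTL3 knockout, 3.27 times control. The 27 held 369 and 429 in control, 1221 and 1234 in the CFL1 knockout and 1248 and 1290 in the METTL3 knockout, 3.13 times control. Both sets were chosen by the same ratio, so like ratios follow from the rule and say nothing of these stretches. The METTL3 knockout exceeded the CFL1 knockout more in the 11, where the CFL1-to-METTL3 ratio was 0.849, than in the 27, where it was 0.967. That difference was not tested.

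Windows chosen with 1 library of each group could be read in the libraries that had not chosen them. Control 1, CFL1 knockout 3 and METTL3 knockout 3 chose 49 windows, 30 of them among the 38, with a summed ratio of 3.25. In the other 3 libraries these windows held 921 lines per 100000 in control 2, 2202 in CFL1 knockout 5 and 2391 in METTL3 knockout 5, a ratio of 2.49. Chosen with those 3 libraries, 46 windows, 31 of them among the 38, had a ratio of 3.19, and in control 1, CFL1 knockout 3 and METTL3 knockout 3 they held 577, 1732 and 1856, a ratio of 3.11. In libraries not used for the choice, the knockout mean was above control in 48 of the 49 windows, against 51.1% of the 1472 windows with a knockout mean of 20 or more in the choosing libraries. It reached 2.5 times control in 26 of the 49, against 2.38%. In the other direction it was above control in 46 of 46 windows, against 55% of 1483, and reached 2.5 times control in 31 of the 46, against 3.71%. Libraries of a group may come from 1 culture, and nothing in the labels says otherwise. The 38 windows themselves were chosen with all 6 libraries, and each reading here had 1 library per group. These values thus describe how far the libraries repeat each other and are no test of the knockouts.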

How the data were processed

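The authors deposited 3 lists of m6A peaks, for control, CFL1 knockout and METTL3 knockout PANC-1 cells. Per the submitters' processing notes, reads were aligned with STAR to hg19 and peaks called with MACS2, and bedtools is named too. Versions and filters, and how input was used, are not stated by the labels or file contents. Each line of the deposited lists holds an interval, a summit, a fold enrichment (a ratio), a −log10 p, a −log10 q and a score, and only the interval, fold and −log10 q were used. The names of the deposited peaks show 2 libraries per list, called separately, with 63859 to 79467 lines each. Read depth is unknown. The other 20 of the labels' 32 samples were not analysed here.

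Lines were assigned to 1-Mb windows by start and scaled to 100000 lines of the library, counting all chromosomes (Python 3.11.15, pandas 2.3.3). Choosing and overlap functions were tested on simulated data. Members, lists and comparisons were chosen with earlier results of these data known. Among 38 windows, the 20 with the highest knockout mean were given in each library, and sites were named in the first 12. Gene names are general knowledge of hg19, and all 18 named were found on the stated chromosome in RefSeq's GRCh38.p14 table, which has other coordinates and was used for names and order only. Values are per library or means ± SD over 2 libraries, with exact permutation over libraries for the CFL1 against the METTL3 knockout. Alternatives covered thresholds, window grid, merging, scaling and each library left out. No label states that libraries of a group come from separate cultures, so their spread may be technical.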

Additional observations from a re-analysis of the deposited data

Results flagged for a closer look

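Chromosome X lay outside the rule, which took chromosomes 1 to 22. The same floor and ratio applied to it gave 6 windows of the 56 with a knockout mean of 20 or more, 10.7%. In these 6 windows every knockout library lay above both controls, an order that the choice by the same libraries favours. The fullest, 57000001 to 58000000, held 24.5 and 23.9 lines per 100000 in control, 66.0 and 70.9 in the CFL1 knockout and 92.4 and 90.8 in the METTL3 knockout. The highest ratio, 5.63, was at 75000001 to 76000000, where control held 5.15 and 3.78 and the knockouts 22 to 31.3. The other 4 windows start at 52000001, 56000001, 62000001 and 63000001.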

How the results depend on the processing

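No alternative turned the direction of a summed result or of the ratio of any of the 38 windows. Leaving out each library could not turn a window's ratio, since all 4 knockout libraries lay above both controls in all 38. Of the 49 windows chosen with the lower-numbered libraries, 48 stayed above control in the others, and the lowest ratio was 0.956. The number of windows meeting the rule stayed within 1.5 times 38 except with a floor of 10 (130), a ratio of 2 (92) or 3 (20), and 500-kb windows with a floor of 10 (187). It ran from 31 to 55 with each library left out, lowest without control 1 and highest without CFL1 knockout 3. With lines under a −log10 q of 5 or 10 dropped, 35 and 26 windows met the rule, of which 23 and 11 were among the 38. Which windows meet it thus depends on the weaker lines. Scaled to the lines past each threshold, the summed ratio of 3.17 was 2.91 and 2.42 there, and 2.49 when windows chosen with the lower-numbered libraries were read in the others. Without each library it ran from 2.98 to 3.38. The CFL1-to-METTL3 ratio stayed below 1 in the 11 alternatives that recomputed it and ran from 0.918 to 0.944 without each library. The share of knockout sites without a control site was 79.7% with lines under a −log10 q of 10 dropped and 73.8% if a control line within 1000 bp counted, and ran from 79.9% to 86.4% without each library. The median fold of the windows over the library's, 1.08, was 1.14 and 1.22 at those thresholds, and ran from 1.07 to 1.10 without each library. The causes were not tested. No paired analysis was possible because the numbers 3 and 5 that both knockouts share in the peak names are in no label, and control has other numbers. Few lines per control library and unknown read depth limit single windows.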
